A study of Mus musculus with 2 samples.

Results

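The cells described here are aortic barcodes selected on RNA of genes that mark modulated smooth muscle cells, also called fibromyocytes. They were chosen in single-cell RNA-seq of 2 libraries of mouse aorta, 1 library per group. Both groups were ApoE-/- on C57BL/6 and were fed a Western diet. ApoE is an apolipoprotein whose loss raises plasma cholesterol. WT aortas are labelled with no other genetic change. EC-iCD45KO aortas came from mice in which tamoxifen induces loss, in endothelial cells, of CD45, the leukocyte phosphatase encoded by Ptprc. The age and sex of the animals, the promoter that drives the deletion, any tamoxifen given to the WT group, the diet's length and any pooling of aortas are not given in the sources used here. Digested aortas were enriched with microbeads against CD31, an endothelial surface protein, so the smooth muscle cells and fibroblasts in the data are those that came through an endothelial enrichment.

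Barcodes entered the analysis from 300 detected genes upwards and with no more than 10% of UMIs from mitochondrial genes. A UMI (unique molecular identifier) marks 1 captured RNA molecule. A kept barcode was selected with a UMI in at least 3 of 10 genes, which were Vcam1, Lum, Timp1, Ltbp2, Grem1, Tnfrsf11b, Prg4, Slurp1, Sfrp2 and Nupr1. It could hold a UMI in at most 1 of 5 adventitial fibroblast genes (Clec3b, Pi16, C7, Dpep1, Scara5) and in at most 1 of 6 chondrocyte genes (Acan, Col2a1, Chad, Cytl1, Hapln1, Matn3). It could also hold a UMI in at most 2 of 8 endothelial genes (Egfl7, Esam, Ecscr, Cdh5, Cldn5, Ptprb, Tie1, Cd93). The rule selected 7259 of 68463 kept barcodes. In WT these were 3935 of 39503 barcodes, or 9.96% (9.67 to 10.3). In EC-iCD45KO they were 3324 of 28960, or 11.5% (11.1 to 11.9). The difference was 1.52 percentage points (1.05 to 1.99). All intervals are at 95% and cover counting error only. With 1 library per group there is no test between conditions, no p-value is given, and differences between the groups cannot be told apart from differences between the preparations.

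Vascular smooth muscle cells of a healthy artery are contractile: they hold actin and myosin filaments with their regulators and lie among elastic lamellae. In atherosclerosis some of them lose contractile proteins, divide, move into the intima and produce collagens, proteoglycans and fibronectin, which is called phenotypic modulation. Fibromyocytes are the modulated state with fibroblast-like genes, such as Lum, Dcn and Tnfrsf11b, which in mouse plaques contributes to the fibrous cap. Modulated cells lie between contractile smooth muscle and fibroblasts in their expression, so both serve as references here.

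The libraries held 92058043 UMIs in WT and 88967918 in EC-iCD45KO, with medians of 1552 and 1438 UMIs per kept barcode. The selected barcodes were slightly deeper, with medians of 1666 and 1766.5 UMIs, and together held 11723223 and 14239437 UMIs. The libraries shared 340 barcode sequences, of which 1 met the rule in both. Ptprc, the targeted gene, stood at 257 CPM (the gene's share of the UMIs of the same barcodes, times 1000000) in WT and 128 CPM in EC-iCD45KO over the selected barcodes. The log2 ratio of EC-iCD45KO over WT was -1.0 (-1.09 to -0.92). Smooth muscle was not a target of the deletion, and leukocyte RNA was present in these barcodes, so this value does not check the deletion.

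The label held for only some of the selected barcodes. UMIs of at least 3 of 8 leukocyte genes occurred in 2774 selected WT barcodes (70.5%) and in 1979 of EC-iCD45KO (59.5%). No UMI of 10 contractile smooth muscle genes occurred in 1877 (47.7%) and 1279 (38.5%). T and NK cells, which should lack the 10 selecting genes, met the rule at 6% in WT (418 of 6963) and 4.15% in EC-iCD45KO (29 of 698), at medians of 2063 and 2678 UMIs. Their share with a Lum UMI was 18.5% and 16.0%, against 86.8% and 83.3% in the selected barcodes. After thinning each cell to 1000 UMIs these shares were 11.9% and 9.21%, against 72.2% and 63.6%. Thinning left out 592 and 656 selected barcodes and 643 and 79 T and NK cells. RNA of the selecting genes was thus found in droplets of other cell types, and a UMI alone does not place a barcode among smooth muscle cells.

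The threshold of 3 genes lay in a dense part of the distribution. Barcodes with exactly 3 genes numbered 1851 in WT (47.0%) and 1443 in EC-iCD45KO (43.4%). Just outside, with 2 genes, there were 3516 and 3195. Barcodes with exactly 3 genes had medians of 1408 and 1542 UMIs and of 4 leukocyte genes in each library. Those with 7 genes, 175 and 139, had medians of 8392 and 5632 UMIs and of 3 and 2 leukocyte genes.

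Clustering of the selected barcodes without the rule genes gave 18 clusters, 16 of them with at least 50 barcodes. Contractile and matrix genes were not left out, so they could shape the clusters. Cluster 6 had markers of modulated smooth muscle, Slurp1 and Grem1, among its 10 leading genes and is called the modulated smooth muscle-like cluster. All 6 of these markers are rule genes, so the name rests on values that selected the barcodes. Without rule genes its leading genes were Anxa8, Aqp5, Dcn, Mmp3 and Ren1. It held 564 barcodes, 360 of WT (9.15% of the selected) and 204 of EC-iCD45KO (6.14%). Its barcodes had UMIs in a mean of 3.12 of the 6 markers Ltbp2, Grem1, Tnfrsf11b, Slurp1, Prg4 and Nupr1, with a median of 7857 UMIs. Cluster 4, led by Cnn1, Myl9, Acta2 and Myh11 and called contractile smooth muscle-like, held 202 and 399 barcodes (5.13% and 12%) at a median of 8208 UMIs.

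The other clusters were led by genes of other cell types or stayed unnamed. Cluster 1, the most numerous, was led by B lymphocyte genes such as Cd79a and Ms4a1 and held 1502 WT and 96 EC-iCD45KO barcodes. Cluster 2 held 241 and 838 barcodes and is not described further. Cluster 3 was led by Chl1 and Cxcl14 with fibroblast markers (115 and 692). Cluster 5 was led by haemoglobin genes (575 and 0), cluster 11 by immunoglobulin genes (206 and 26) and cluster 7 by the macrophage genes Lyz2 and Gpnmb (77 and 359). Median depths of clusters 1, 2, 3, 5 and 11 were 1187 to 1788 UMIs, below those of clusters 4 and 6, and cluster 7 had 6515. Since different clusters hold most of the set in each library, values over all selected barcodes mix different makeups, and cluster sizes are given as makeup and not as a result.

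**Figure D1:**
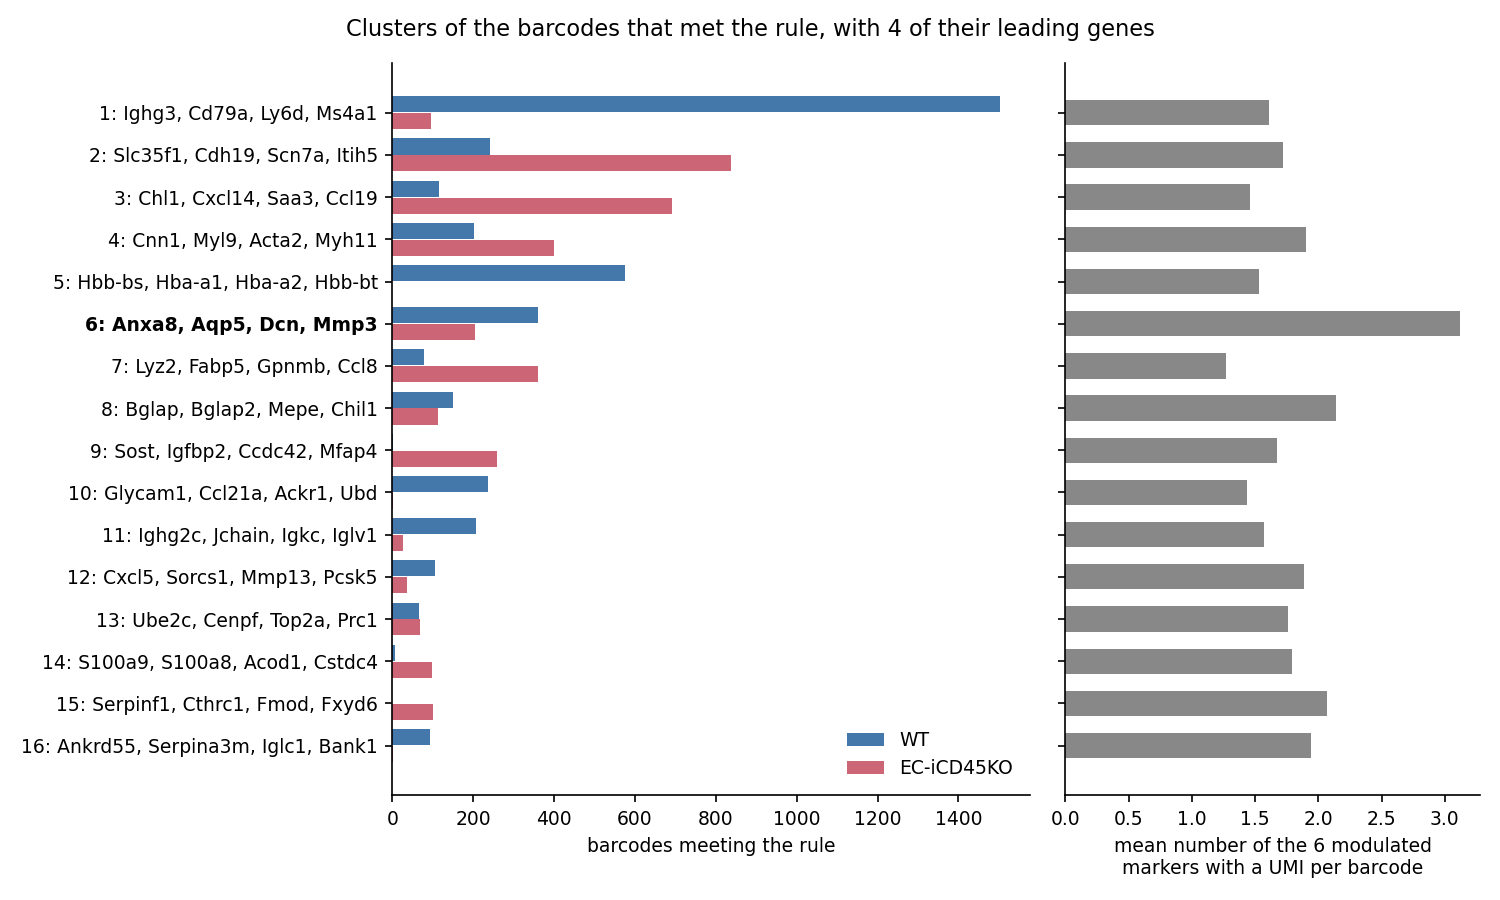
Number of selected barcodes in each of the 16 clusters of at least 50 barcodes, by library (left, bars from 0), and the mean number of the 6 modulated markers with a UMI (right). Clusters are labelled with 4 of their leading genes other than rule genes. Cluster 6, in bold, has the highest mean, 3.12 markers, and holds 360 WT and 204 EC-iCD45KO barcodes.

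The genes that selected the barcodes are given next, as a description only. In the modulated smooth muscle-like cluster Lum, a collagen-binding proteoglycan, was the most abundant of them at 6416 CPM in WT and 8145 in EC-iCD45KO. Nupr1, a stress-induced chromatin-binding protein, stood at 5359 and 5565 CPM. Vcam1, an adhesion receptor for leukocytes, stood at 3086 and 4174 CPM, and Timp1, an inhibitor of matrix metalloproteinases, at 1881 and 4094. A single EC-iCD45KO barcode held 1974 of the 9051 Timp1 UMIs. Lum and Nupr1 were detected in nearly all barcodes of the cluster, 98.1% and 98.3% in WT and 97.1% and 97.5% in EC-iCD45KO.

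The other 6 genes were less abundant. Tnfrsf11b, which encodes osteoprotegerin, a decoy receptor for the osteoclast factor RANKL, stood at 624 CPM in WT and 727 in EC-iCD45KO. Prg4, the joint lubricant lubricin, stood at 553 and 354 CPM, but 1 WT barcode held 674 of its 1662 UMIs. Without the highest barcode of each library Prg4 stood at 331 and 317 CPM. Ltbp2, a protein of elastic microfibrils, stood at 292 and 396 CPM, and Sfrp2, a secreted modulator of Wnt signalling, at 203 and 455. Grem1, a secreted antagonist of bone morphogenetic proteins, stood at 167 and 141 CPM, and Slurp1, a small secreted protein of the Ly6 family, at 142 and 183.

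Gene positions are those of GENCODE release M21 on GRCm38. Lum (ENSMUSG00000036446) is at chr10:97565128-97572703 on the plus strand. Nupr1 (chr7:126623249-126630861), Tnfrsf11b (chr15:54250619-54278484) and Grem1 (chr2:113746164-113758646) are on the minus strand, and no other annotated gene overlaps these 4. Slurp1 (chr15:74724318-74728034) and Prg4 (chr1:150449412-150466165) are on the minus strand too and overlap Them6 and Tpr on the other strand. Whether the counting used strand is not given in the sources used here.

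The modulated smooth muscle-like cluster was set beside 2 reference populations of the same libraries. Contractile reference barcodes (836 in WT, 1410 in EC-iCD45KO) had UMIs of at least 3 of 10 contractile genes and at most 2 rule genes. Fibroblast reference barcodes (1159 and 1247) had UMIs of at least 2 of the 5 adventitial fibroblast genes. The cluster was deeper, with medians of 7398 and 9627 UMIs, than the contractile reference at 1574.5 and 1591.5 and the fibroblast reference at 1793 and 1983. Macrophage markers summed to 246 and 515 CPM in the cluster, 2471 and 4722 in the contractile reference and 2335 and 3281 in the fibroblast reference. Macrophage markers were thus lower in the cluster than in either reference. The part of RNA from other cells in other genes was not tested.

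Genes of the contractile apparatus were lower in the modulated smooth muscle-like cluster than in the contractile reference. Acta2, smooth muscle actin, stood at 1997 CPM in WT and 2049 in EC-iCD45KO, against 11673 and 13583 in the reference. Tagln, an actin-binding protein of smooth muscle, stood at 1646 and 1409 CPM against 8577 and 10440. All 16 genes of the contractile list were at least 2-fold lower in both libraries, where 9.51% of 8944 genes were, with median log2 ratios of -2.43 and -2.54. The reference was gated on some of these genes. The 8 that the gate did not use (Acta2, Tagln, Myl9, Tpm1, Tpm2, Mylk, Cald1, Csrp1) were all at least 2-fold lower as well, with medians of -2.28 and -2.44. The gate favours barcodes rich in contractile RNA, and contractile genes could shape the clusters. This contrast is therefore a description for these 8 genes too.

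Against fibroblasts the same genes were higher. Acta2 stood at 807 and 843 CPM in the fibroblast reference and Tagln at 673 and 613. Of 15 contractile genes tested, 6 were at least 2-fold higher in the cluster in both libraries, where 3.12% of 8919 genes were, and none was 2-fold lower, where 8.60% were. The median log2 ratios were 1.08 in WT and 1.03 in EC-iCD45KO. The cluster thus lay between both references in contractile RNA in each library, which describes populations chosen partly on such genes.

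Collagen genes were mostly higher in the cluster than in the contractile reference. That reference was limited to at most 2 rule genes, and matrix genes could shape the clusters, so the contrast is a description. Of 16 collagen genes tested, 12 were at least 2-fold higher than in the contractile reference in both libraries, where 4.32% of genes were, with medians of 1.78 and 1.75. Col1a1, a chain of type I collagen, stood at 821 and 772 CPM against 155 and 167. Col3a1, the chain of type III collagen, stood at 1838 and 2898 CPM against 444 and 391. Against the fibroblast reference 3 of 16 collagen genes were 2-fold higher, where 3.12% of genes were, and 1 was 2-fold lower, where 8.60% were. The medians were 0.10 and -0.30.

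The modulated program is a list of 15 genes reported in modulated smooth muscle, none of them a rule gene. Of these, 10 were at least 2-fold higher than in the contractile reference, where 4.32% of genes were, and none was at least 2-fold lower, where 9.51% were. The reference was limited to at most 2 of the 10 rule genes and the cluster's barcodes held at least 3, so the contrast is a description. Spp1, the secreted phosphoprotein osteopontin, stood at 17080 and 21192 CPM against 1288 and 1755, and at 2182 and 2512 in fibroblasts. Fn1, fibronectin, stood at 4102 and 4472 CPM against 678 and 1438, and at 538 and 773 in fibroblasts. Dcn, decorin, stood at 9594 and 12453 CPM against 604 and 296, and fibroblasts held as much, at 12228 and 9967.

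Genes ranked by their ratio to the contractile reference were led by Grin2a, a glutamate receptor subunit, at 123 and 92.3 CPM against 1.01 and 0.683. Anxa8, an annexin, stood at 184 and 190 CPM against 2.03 and 2.50. Mmp3, a stromelysin that degrades matrix, stood at 2612 and 4079 CPM against 79 and 64.9, and Mmp13, a collagenase, at 216 and 101 against 3.55 and 1.82. Pdgfra, a receptor for platelet-derived growth factor and a common fibroblast marker, stood at 131 and 91.4 CPM against 9.63 and 4.55. Lcn2, Dcn, Hp, Efemp1 and Spp1 completed these 10 genes. The lowest ranks included Sost, an inhibitor of Wnt signalling, at 1.33 and 2.26 CPM against 121 and 317, and Sparcl1, a matricellular protein, at 38.6 and 23.1 against 571 and 508.

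The 10 genes highest against fibroblasts again included Spp1. Clu, the extracellular chaperone clusterin, stood at 5932 and 5831 CPM against 822 and 783, and Tnc, tenascin C, at 134 and 125 against 14 and 17.5. Rarres1 stood at 94.2 and 98.6 CPM against 11.8 and 12, and Pdgfc, a growth factor of the platelet-derived family, at 182 and 130 against 27.3 and 19. The 10 genes lowest against fibroblasts were Inmt, Sfrp1, Col6a5, Svep1, Cxcl13, Abca8a, Tshz2, F3, Apod and Cxcl14. Cxcl14, a chemokine, stood at 8.33 and 25.3 CPM against 640 and 1047, and Svep1 at 1.33 and 0.452 against 104 and 96.3. Of 10 complement genes 7 were at least 2-fold lower than in fibroblasts in both libraries, where 8.60% of genes were, with medians of -2.20 and -1.53, and C3 stood at 359 and 657 CPM against 2042 and 2513.

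**Figure D2:**
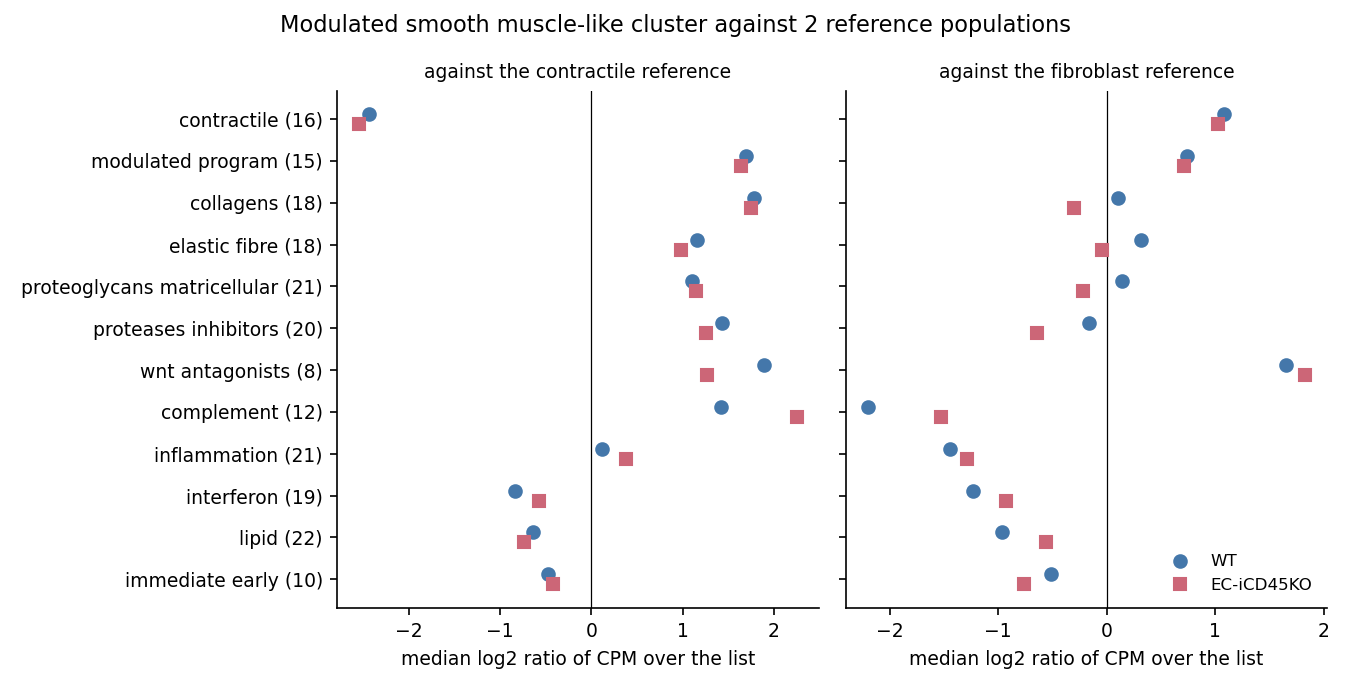
Median log2 ratio of CPM over 12 gene lists, modulated smooth muscle-like cluster over the contractile reference (left) and over the fibroblast reference (right), in WT (circles) and EC-iCD45KO (squares). The number of genes in each list is in parentheses. The contractile list lies at -2.43 and -2.54 on the left and at 1.08 and 1.03 on the right.

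Over all selected barcodes contractile and modulated program genes stood closer to the contractile reference than in the cluster. Against the contractile reference, 13 of 16 contractile genes were at least 2-fold lower in both libraries, where 2.15% of 9075 genes were, and the medians were -1.95 and -1.19. Of 15 modulated program genes, 7 were at least 2-fold higher, where 1.76% were. Against the fibroblast reference, 13 of 15 contractile genes were at least 2-fold higher, where 2.24% of 9088 genes were, with medians of 1.67 and 2.46, above those of the cluster, and 8 of 10 complement genes were at least 2-fold lower, where 3.47% were. The selected barcodes include the contractile cluster.

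The libraries were then compared over all selected barcodes. Contractile genes were higher in EC-iCD45KO. Acta2 stood at 3327 CPM in WT and 6225 in EC-iCD45KO (log2 ratio 0.90, 0.89 to 0.92), and Cnn1, calponin, at 191 and 444, a ratio of 1.22 (1.15 to 1.29). All 15 contractile genes tested had a ratio above 0, where 42.9% of 9000 genes did, and 4 (Myh11, Cnn1, Actg2, Des) were at least 2-fold higher, where 2.27% were. The median was 0.89, beside -0.05 over all genes. The makeup moved with it, since 669 selected WT barcodes (17%) and 981 of EC-iCD45KO (29.5%) had UMIs of at least 3 contractile markers. The ratios were not particular to these barcodes. In T and NK cells the contractile median was 0.76, beside 0.07 over all genes, and over all kept barcodes it was 1.14, beside 0.00. Without the contractile cluster, cluster 4, the median was 0.53, but these barcodes still included cluster 9, which held contractile genes (2 WT and 258 EC-iCD45KO barcodes, median of 4 contractile markers). The median was 0.04 in the modulated smooth muscle-like cluster alone. Contractile genes could shape the clusters, so this value is a description of barcodes partly sorted by such genes.

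**Figure D3:**
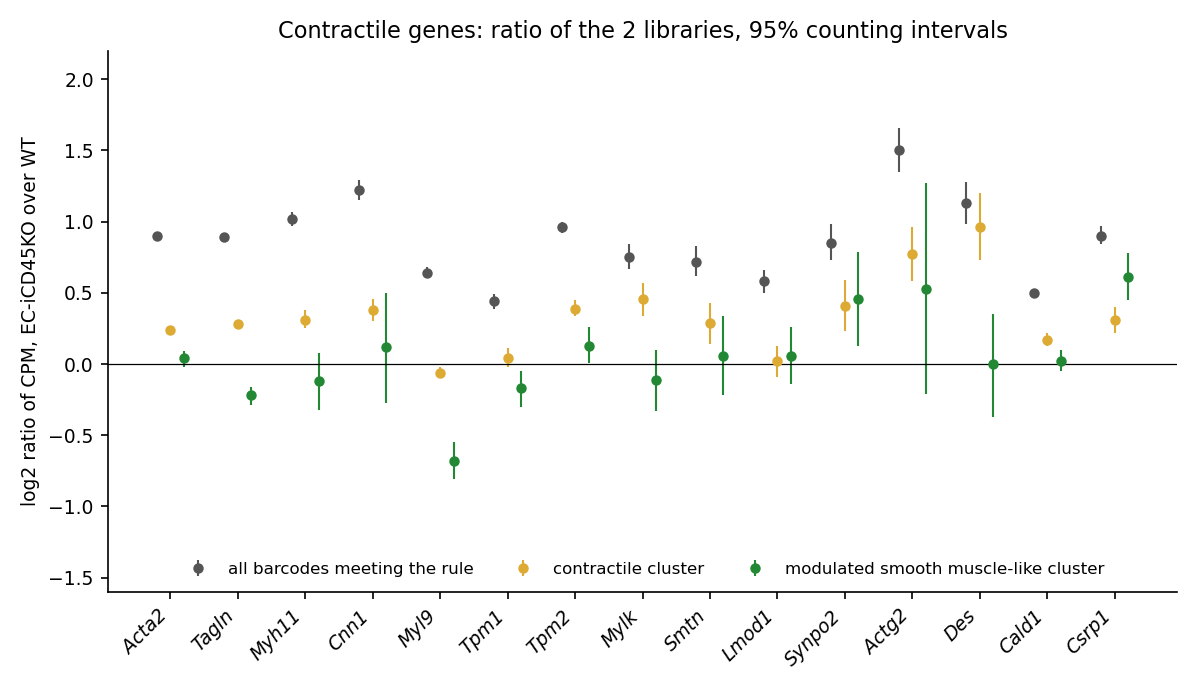
Log2 ratio of CPM, EC-iCD45KO over WT, of 15 contractile genes over all selected barcodes, in the contractile cluster and in the modulated smooth muscle-like cluster, with 95% counting intervals as lines. All 15 points of the whole set lie above 0. In the modulated smooth muscle-like cluster they scatter around 0, with Acta2 at 0.04 and Myl9 at -0.68.

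The modulated program and inflammation lists changed sign with the choice of barcodes. The modulated program had a median of 0.28 over all and -0.08 in barcodes with at most 2 leukocyte genes. Inflammation genes had a median of 0.31, with 6 of 19 at least 2-fold higher, where 2.27% of genes were. In barcodes with at most 2 leukocyte genes the median was -0.04, beside -0.08 over all genes. There 2 of 19 were 2-fold higher, where 126 of 8710 genes were. Of 11 cartilage and calcification genes 10 were below 0, where 57.1% of genes were, and 5 were at least 2-fold lower, where 3.0% were. In the modulated smooth muscle-like cluster, 5 of 9 were below 0, near the overall share of 62.1%, and 1 was at least 2-fold lower, where 2.10% were. The median was -0.35.

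The genes with the largest differences over all selected barcodes included genes of macrophages, B cells and bone. In EC-iCD45KO the highest ratio was that of Chil1, a chitinase-like protein, at 12.5 CPM in WT and 253 in EC-iCD45KO. Lyz2, a lysozyme of macrophages, stood at 1190 and 4361 CPM, and Clec4n, a lectin receptor of myeloid cells, at 28.5 and 108. Macrophage markers, all 10 of which had UMIs in both libraries, summed to 2626 and 6020 CPM over the same barcodes. Among the lower genes Bglap, which encodes the bone protein osteocalcin, had 1868 UMIs in WT and 1 in EC-iCD45KO, and Ibsp, bone sialoprotein, stood at 1206 and 48 CPM. Bank1, a B-cell adaptor, stood at 250 and 18.8 CPM and Ltb, lymphotoxin beta, at 107 and 10.4. B-cell markers summed to 652 and 47.8 CPM, and their part in these differences was not tested.

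The modulated smooth muscle-like cluster held 3002959 UMIs in WT and 2210844 in EC-iCD45KO. Of 8460 genes, 85 (1.0%) were at least 2-fold higher in EC-iCD45KO and 178 (2.10%) at least 2-fold lower. Scaled by median of ratios, the numbers were 103 and 141. Over all selected barcodes they were 204 and 270, or 266 and 229 with that scaling, which moved log2 ratios up by 0.11. Leukocyte RNA also differed in the cluster: lymphocyte markers summed to 154 CPM in WT and 15.8 in EC-iCD45KO for T and NK cells and to 129 and 7.24 for B cells, while macrophage markers were higher in EC-iCD45KO. T and NK cells of the same library therefore serve below as a level for cells that should lack smooth muscle RNA. They were shallower than the cluster, and RNA from other cells takes a smaller share of a deeper barcode. In WT the immunoglobulin gene Igkc was detected in 85.6% of the cluster and 86.1% of T and NK cells, but in 32.7% and 66.4% after thinning to 1000 UMIs. In EC-iCD45KO it was detected in 21.6% and 14.2%, and in 3.80% and 5.82% after thinning. For a gene that does not exceed its T and NK level, expression by the cluster and RNA from other cells cannot be told apart. A gene that T and NK cells express themselves can also fail to exceed it, and which genes these are was not tested.

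Contractile genes showed no common direction in the cluster. Acta2 stood at 1997 and 2049 CPM, a log2 ratio of 0.04 (-0.02 to 0.09), and Myh11, smooth muscle myosin, at 164 and 151. Myl9, the regulatory myosin light chain, was lower in EC-iCD45KO at 515 and 322 CPM, a ratio of -0.68 (-0.81 to -0.55), and Csrp1, a LIM-domain protein, was higher at 199 and 305, a ratio of 0.61 (0.45 to 0.78). Of 15 genes 9 were above 0, where 37.9% of all genes were, and 6 below, where 62.1% were. None reached 2-fold. Median-of-ratios scaling moved the list's median from 0.04 to 0.13. Since contractile genes could shape the clusters, these values are a description.

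Lcn2, Saa3, Cxcl1 and Hp were higher in EC-iCD45KO. Lcn2, the siderophore-binding protein lipocalin 2, stood at 569 CPM in WT and 1739 in EC-iCD45KO (log2 ratio 1.61, 1.53 to 1.69), and was detected in 38.6% and 62.3% of cells. After thinning to 1000 UMIs it was detected in 20.2% and 39.7%. In T and NK cells it stood at 37.2 and 84.7 CPM, far below the cluster in each library. Saa3, a serum amyloid A protein, stood at 110 and 436 CPM, a ratio of 1.98 (1.80 to 2.17), against 23.5 and 248 in T and NK cells. Saa3 came from few cells, with UMIs in 5.28% and 18.6% of them. Cxcl1, a chemokine that attracts neutrophils, stood at 134 and 382 CPM, a ratio of 1.51 (1.34 to 1.68), against 34.6 and 137. Hp, haptoglobin, stood at 225 and 520 CPM, a ratio of 1.21 (1.07 to 1.35), against 26.4 and 39.8.

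Cxcl2, Ccl2 and Ccl7 did not exceed the T and NK level. Cxcl2 stood at 42.6 and 174 CPM in the cluster and at 450 and 1266 in T and NK cells. Ccl2 stood at 34.3 and 109 CPM against 45.7 and 134, and Ccl7, another chemokine for monocytes, at 27 and 74.6 against 30.7 and 117. Without thinning Ccl2 was detected in 9.44% and 19.1% of the cluster and in 6.32% and 14.8% of T and NK cells, and after thinning in 2.56% and 4.35% against 3.21% and 6.14%. Of 19 inflammation genes tested 7 were at least 2-fold higher in EC-iCD45KO, where 1.0% of genes were, with a median of 0.47. In T and NK cells the list's median was 0.79. Of the 9 above the T and NK level in both libraries, 4 (Cxcl1, Cxcl5, Il6, Saa3) were at least 2-fold higher, where 1.34% of 3647 such genes were, and 7 were above 0, where 46.5% were. Il6 and Cxcl5 had few UMIs: 1 EC-iCD45KO cell held 62 of the 124 Il6 UMIs, and 1 held 43 of the 68 Cxcl5 UMIs. Without the highest cell of each library their log2 ratios were 2.42 and 3.09. Ptgs2, the prostaglandin synthase COX-2, stood at 76.3 and 139 CPM, and Cxcl12, a chemokine of stromal cells, differed little at 980 and 930.

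The same differences occurred outside the cluster. In the fibroblast reference Lcn2 stood at 193 and 498 CPM, Saa3 at 1159 and 3445, Cxcl1 at 120 and 375 and Hp at 160 and 416. They were thus higher in EC-iCD45KO in both populations, and nothing here sets the cluster apart from fibroblasts. T and NK cells also held more of each in EC-iCD45KO.

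Stretches of the Cxcl1 and Cxcl2 promoters are shown because both chemokine genes had higher ratios in EC-iCD45KO, although Cxcl2 in the cluster did not exceed its T and NK level. Both lie on chromosome 5. Each holds the letters of an NF-kappa-B consensus, the binding motif of a transcription factor that drives many inflammatory genes. Sequences are from RefSeq on GRCm38.p6, run 5′ to 3′ on the plus strand from 200 to 41 bases before the gene's start, and capitals mark the match. Cxcl1 is chr5:90891045-90891204 and Cxcl2 is chr5:90903699-90903858.
Cxcl1: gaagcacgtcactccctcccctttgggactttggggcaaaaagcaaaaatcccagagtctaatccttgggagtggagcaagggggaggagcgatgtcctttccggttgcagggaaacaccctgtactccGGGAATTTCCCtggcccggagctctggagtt
Cxcl2: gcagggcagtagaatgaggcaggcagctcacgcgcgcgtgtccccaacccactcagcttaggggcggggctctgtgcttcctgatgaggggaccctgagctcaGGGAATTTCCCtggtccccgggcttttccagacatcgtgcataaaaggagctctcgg

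Both promoters hold the same 11 letters, GGGAATTTCCC, in which overlapping matches lie on both strands. In a search of the 250 bases before the start, on both strands, 8 of the 15 inflammation genes with a RefSeq promoter held a match (53.3%), and 8.23% of 27025 genes did. The 8 were Cxcl1, Cxcl2, Cxcl10, Il6, Csf1, Lif, Nfkbia and Tnfaip3, and among them Cxcl2, Cxcl10, Nfkbia and Tnfaip3 were not above the T and NK level. Of 13 contractile genes 2 held it (15.4%), Myl9 and Des. A match describes letters only. Myl9, the contractile gene with the largest difference in the cluster, holds a CArG box, the motif of serum response factor. It is the only 1 of 13 contractile genes with a match (7.69%, against 1.62% of all genes). The list holds 16 genes, and those without a promoter sequence, Tagln and Myh11 among them, were not searched. Boxes beyond the 250 bases or with other letters were not searched either. The Myl9 window is chr2:156775264-156775423 on the plus strand, with the CArG box in capitals.
Myl9: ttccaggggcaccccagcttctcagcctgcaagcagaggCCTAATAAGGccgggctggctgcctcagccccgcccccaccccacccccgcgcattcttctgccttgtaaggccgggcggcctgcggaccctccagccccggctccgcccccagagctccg

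Most complement genes had ratios above 0 within the cluster, and the list's median was above 0 in T and NK cells too. C3, the central complement component, stood at 359 and 657 CPM, a log2 ratio of 0.87 (0.76 to 0.99), and C4b at 92.9 and 170, a ratio of 0.87 (0.64 to 1.10). Cfb, factor B of the alternative pathway, stood at 51.6 and 118 CPM, a ratio of 1.19 (0.90 to 1.49), against 22.2 and 66.4 in T and NK cells. Of 9 complement genes 8 were above 0, where 37.9% of all genes were, and 1 (Cfb) was at least 2-fold higher, where 1.0% were. The median was 0.63, and 0.73 with median-of-ratios scaling. In T and NK cells the list's median was 0.86, beside 0.07 over all 8919 genes tested there.

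Most modulated program and collagen genes had ratios slightly above 0. Of 15 modulated program genes 13 were above 0, where 37.9% of all genes were, with a median of 0.37, and only Lcn2 reached 2-fold, where 1.0% did. In the fibroblast reference the list's median was 0.34, beside -0.04 over all genes, and in T and NK cells 0.23, beside 0.07 over all genes. Spp1 went from 17080 CPM in WT to 21192 in EC-iCD45KO (log2 ratio 0.31, 0.29 to 0.33), and Mgp, the calcification inhibitor matrix Gla protein, from 43397 to 47574. Of 16 collagen genes 13 were above 0, where 37.9% of all genes were, with a median of 0.13, and none reached 2-fold. Collagen medians were larger in fibroblasts, at 0.46 beside -0.04 over all genes, and in T and NK cells, at 0.41 beside 0.07. Col3a1 had a ratio of 0.66 (0.60 to 0.71), whereas Col1a1 had -0.09 (-0.18 to 0.00). Of 17 genes of proteases and their inhibitors 2 were at least 2-fold lower in EC-iCD45KO, Mmp13 and Adamts12, where 2.10% of all genes were. Mmp13 had UMIs in 10.3% of WT cells but 16.7% of EC-iCD45KO cells, and 1 EC-iCD45KO cell held 99 of its 223 UMIs there. Without the highest cell of each library Mmp13 stood at 178 and 56.5 CPM.

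Mpp6, a scaffold protein of the membrane, had the highest ratio among genes with a mean of 50 CPM or more. It stood at 41.6 CPM in WT and 263 in EC-iCD45KO (log2 ratio 2.66, 2.38 to 2.95), with UMIs in 23.1% and 69.1% of cells. The WT level did not exceed the 46.3 CPM of T and NK cells, and fibroblasts stood at 39.1 and 330. Mpp6 overlaps Gsdme on the other strand. Selp, the adhesion protein P-selectin, stood at 22 and 95 CPM, a ratio of 2.11 (1.71 to 2.53). Igfbp6, a binding protein of insulin-like growth factors, stood at 36.6 and 99.5 CPM. The tenth of cells with the most Igfbp6 UMIs held 96.4% of them in WT and 93.6% in EC-iCD45KO. In cells with at least 3 Slurp1 UMIs, described below, Igfbp6 stood at 122 and 286 CPM, against 28.2 and 52.2 in the other cells.

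Lbp and Crispld2 were lower in EC-iCD45KO in the cluster while fibroblasts held them at similar or higher levels there. Lbp, the binding protein of bacterial lipopolysaccharide, stood at 502 CPM in WT and 77.3 in EC-iCD45KO (log2 ratio -2.70, -2.93 to -2.47), and was detected in 62.2% and 17.2% of cells. In fibroblasts it stood at 483 and 665 CPM, a ratio of 0.46 (0.37 to 0.55). Crispld2, a secreted protein that binds lipopolysaccharide, stood at 303 and 95.4 CPM in the cluster, a ratio of -1.67 (-1.89 to -1.45), and at 270 and 332 in fibroblasts. Of genes above the T and NK level in both libraries, 60 (1.65%) were at least 2-fold lower, Lbp and Crispld2 among them. With 1 library per group the difference between cluster and fibroblasts was not tested.

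Tmeff2, a membrane protein with an epidermal growth factor-like domain, stood at 281 and 57.4 CPM, a log2 ratio of -2.29 (-2.57 to -2.02), and Rspo3, an agonist of Wnt signalling, at 97.2 and 22.2. Lama2, a laminin chain, stood at 139 and 50.2 CPM. Penk, the precursor of enkephalins, stood at 166 and 6.78 CPM, with UMIs in 73 of 360 WT cells and 5 of 204 EC-iCD45KO cells. T and NK cells held 23.2 and 89.4 CPM of Penk, so its EC-iCD45KO level was below theirs. Ibsp stood at 271 and 4.52 CPM, below the 480 and 44.5 of T and NK cells. Pttg1, a regulator of chromosome separation, stood at 106 and 8.14 CPM, against 69.9 and 56.2 in T and NK cells.

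**Figure D4:**
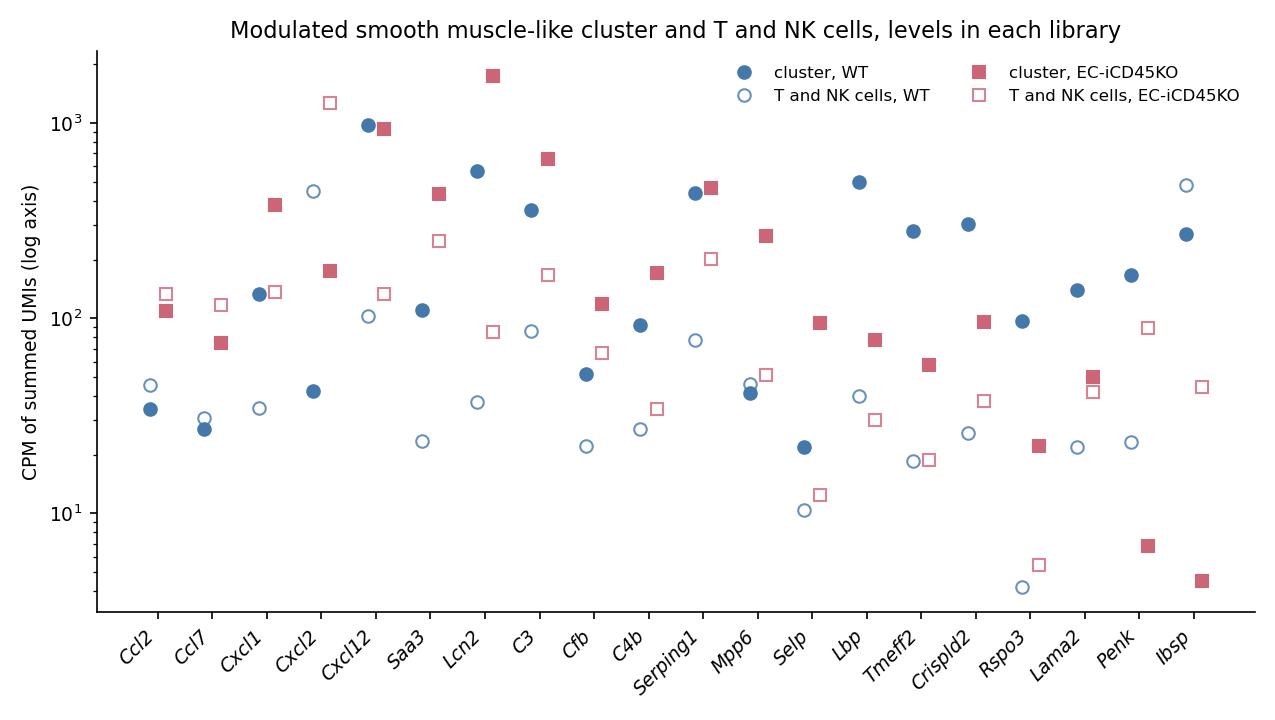
Levels (CPM of summed UMIs, log axis) of 20 genes in the modulated smooth muscle-like cluster (filled) and in T and NK cells (open), in WT (circles) and EC-iCD45KO (squares). Lcn2 lies far above T and NK cells in both libraries, at 569 and 1739 CPM. Ccl2, Ccl7, Cxcl2 and Ibsp lie below them.

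The cluster was not uniform for the markers that name it. Slurp1 had UMIs in 42 of 360 WT cells (11.7%) and 42 of 204 EC-iCD45KO cells (20.6%), and the tenth of cells with the most UMIs held 98.6% and 84.4% of them. At least 3 Slurp1 UMIs occurred in 20 WT cells (5.56%) and 35 EC-iCD45KO cells (17.2%), and 22 and 7 cells lay just below with 1 or 2. Of these 35 EC-iCD45KO cells 14 were shallow, with 525 to 2518 UMIs, and of the 20 WT cells 1 was, with 736. Among cells with at least 3000 UMIs the shares were 19 of 309 (6.15%, 3.74 to 9.44) and 21 of 142 (14.8%, 9.39 to 21.7). After thinning to 1000 UMIs the shares with a UMI were 4.26% and 9.24%, with 8 and 20 shallower cells left out, against 0.269% and 0.323% in T and NK cells. Slurp1 is a rule gene. Only the cluster was selected on rule genes, so its contrast with T and NK cells is a description. At least 3 Grem1 UMIs occurred in 42 WT cells (11.7%) and 29 EC-iCD45KO cells (14.2%), and at least 3 Prg4 UMIs in 84 (23.3%) and 59 (28.9%). At least 3 UMIs of both Slurp1 and Grem1 occurred in 3 WT cells and 1 EC-iCD45KO cell. These are 15% and 2.86% of the Slurp1 cells, beside 11.7% and 14.2% of all cells of the cluster with at least 3 Grem1 UMIs. Both are rule genes, on whose UMIs the barcodes were selected, and the overlap rests on few cells. It is given as a description only.

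**Figure D5:**
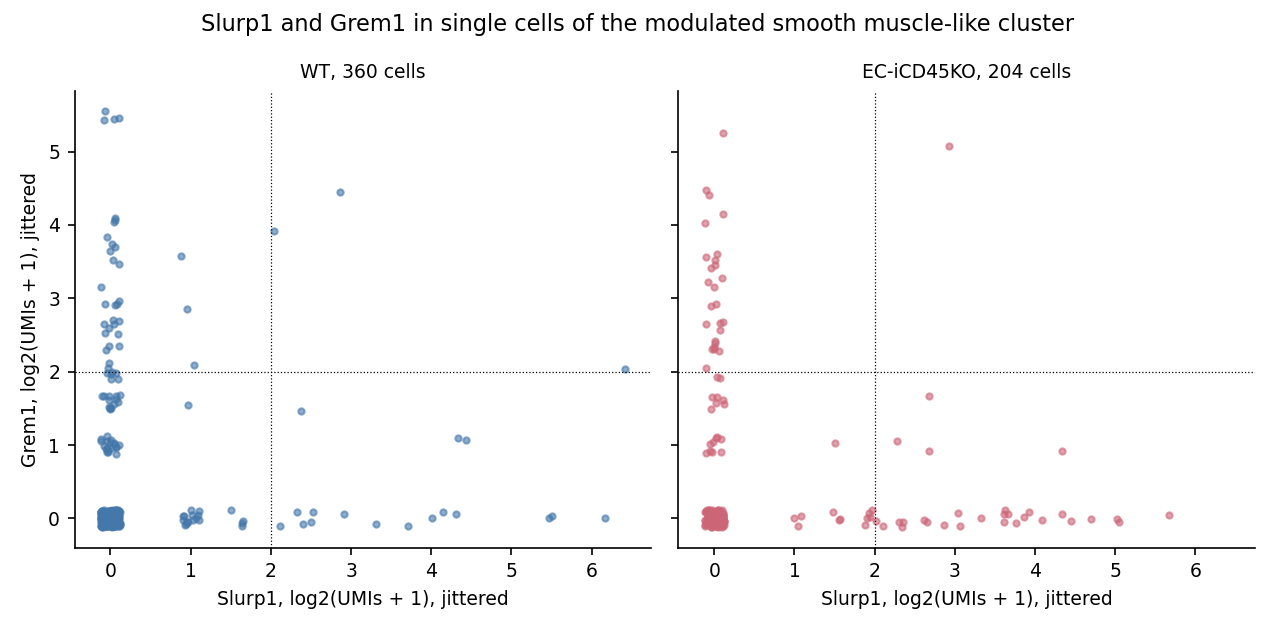
Slurp1 and Grem1 UMIs in each cell of the modulated smooth muscle-like cluster, as log2(UMIs + 1) with jitter, for 360 WT cells (left) and 204 EC-iCD45KO cells (right). Dotted lines mark 3 UMIs. At or beyond both lines lie 3 WT cells and 1 EC-iCD45KO cell, of 20 and 35 Slurp1 cells and 42 and 29 Grem1 cells.

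Cells with at least 3 Slurp1 UMIs were set beside the rest of the cluster. The genes given were chosen for a ratio in the same direction in both libraries, so their direction is no separate evidence. The Slurp1 cells are a range of counts and not a type, and their depth was uneven, with medians of 12201.5 and 12315 UMIs against 7287 and 9410 but the 14 shallow barcodes of EC-iCD45KO among them. Summed UMIs weight the deep cells most. Crabp2, a carrier of retinoic acid, stood at 133 CPM in WT and 145 in EC-iCD45KO in them, against 13.9 and 13.6 in the other cells. Timp3, a matrix-bound inhibitor of metalloproteinases, stood at 4631 and 4728 CPM against 1250 and 990, and Anxa8 at 575 and 507 against 146 and 109. Tnxb, tenascin X, stood at 144 and 192 CPM against 47.6 and 48.8. The Slurp1 cells were low in Cxcl12, at 99.6 and 148 CPM against 1068 and 1128, in Igfbp5, at 40.6 and 11.2 against 365 and 196, and in Ntrk3, a neurotrophin receptor, at 22.1 and 24.6 against 213 and 212. Rgs5, a regulator of G-protein signalling typical of pericytes, had no UMI in the WT Slurp1 cells and stood at 2.24 CPM in those of EC-iCD45KO, against 304 and 277.

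Genes for Grem1 and Prg4 cells were chosen in the same way. Cells with at least 3 Grem1 UMIs had Mmp13 at 507 and 350 CPM against 165 and 57.4, and Chrm3, a muscarinic receptor, at 148 and 113 against 53.4 and 11.7. They were low in Itih4, at 4.40 and 12.2 CPM against 136 and 129, and in Comp, a cartilage matrix protein, at 104 and 101 against 399 and 252. Cells with at least 3 Prg4 UMIs had Spp1 at 26924 and 28840 CPM against 13181 and 15952, and Comp at 514 and 337 against 291 and 156. Their Tagln stood at 980 and 966 CPM against 1909 and 1712. The Prg4 cells had medians of 9628.5 and 14275 UMIs, against 6979.5 and 7598 in the others, and the Grem1 cells 9374 and 9770 against 7270.5 and 9521.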

How the data were processed

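The deposited files hold whole-number UMI counts per gene and cell barcode for each library. Cell Ranger 7.1.0 and the build mm10 are named in the submitters' processing notes, and the counting of introns and strand is not given in the sources used here. The members and gene lists were chosen with earlier results of these data known. The lists were therefore only counted, beside the same counts over all genes whose mean reached 10 CPM.

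UMI counts were summed over the barcodes of a population in each library and divided by their total, per 1000000 UMIs (CPM). Log2 ratios carry exact conditional binomial intervals, shares exact Clopper-Pearson intervals and the difference of shares a Newcombe interval, at 95% and for counting error only. Only the intervals of the log2 ratios were tested on simulated data. The simulated counts were Poisson counts without differences between cells, so that test does not cover genes whose UMIs lie in few cells. No doublet caller was run; leukocyte genes (8 in the screen) were counted instead. Members were clustered without the rule genes on 2000 variable genes, 30 components, 15 neighbours and Leiden resolution 0.6 in scanpy 1.11.5, and clusters were named from fixed markers. T and NK cells had UMIs of at least 3 of their markers. Named were the 10 genes with the largest and the lowest ratio in each comparison at a mean of at least 50 CPM, the rule genes and list members, without immunoglobulin, haemoglobin, mitochondrial and ribosomal protein genes, unnamed gene models and leukocyte markers; some results are not reported here. The cells with 3 or more Slurp1, Grem1 or Prg4 UMIs, and the genes given for them, were chosen after their values were seen. Computation used Python 3.11.15, numpy 2.4.6, scipy 1.17.1 and pandas 2.3.3.

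The alternatives were other scalings, no minimum level with 0.5 CPM added, at least 4 rule genes, at most 2 leukocyte genes, a filter of 500 genes and 5% mitochondrial UMIs, thinning to 1000 UMIs before selection, means of single-cell CPM and stricter references. The modulated smooth muscle-like cluster in place of all members, deep barcodes, barcodes outside the contractile cluster, the cluster without Slurp1 cells or without cells with leukocyte genes, its median-of-ratios scaling and its cells with at least 3000 UMIs were added after seeing the data.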

Additional observations from a re-analysis of the deposited data

How the results depend on the processing

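No paired analysis was possible because only 1 library stands for either genotype. The difference in the share of selected barcodes was 1.52 points, 2.2 over barcodes with at most 2 leukocyte genes and 2.51 with 500 genes and 5% mitochondrial UMIs. The contractile median of 0.89 was 1.0 with median-of-ratios scaling, 0.99 with at least 4 rule genes, 1.05 with at most 2 leukocyte genes, 0.77 after thinning, 0.83 as means of single cells, 1.07 in barcodes with at least 3000 UMIs and at most 2 leukocyte genes, 0.53 outside the contractile cluster 4 and 0.04 in the modulated smooth muscle-like cluster. In the same settings the modulated program, 0.28, was 0.39 with median-of-ratios scaling, 0.13 with 4 rule genes, 0.42 as means of single cells and 0.37 in the cluster, and reversed to -0.08 with at most 2 leukocyte genes and -0.15 in deep barcodes. Inflammation, 0.31, was 0.42 with median-of-ratios scaling, 0.10 with 4 rule genes, 0.45 outside the contractile cluster and 0.47 in the cluster, and reversed to -0.04 and -0.09. Collagens, -0.01, were 0.13 with 4 rule genes, 0.51 after thinning, 0.47 as means of single cells, 0.13 in the cluster and -0.18 in deep barcodes. Lipid genes reversed to -0.08 with at most 2 leukocyte genes and -0.34 in deep barcodes, stress genes to -0.13 and -0.21, insulin-like growth factor genes to -0.12 in the cluster, Clec4n to -0.56 and Ifitm1 to -1.06 in the cluster, and Ccl7 to -0.60 in deep barcodes. Genes at least 2-fold higher numbered 204, and 502 without a minimum, 126 with at most 2 leukocyte genes, 116 in deep barcodes and 85 in the cluster. Genes at least 2-fold lower numbered 270, and 943, 164 and 178 without a minimum, in deep barcodes and in the cluster. The causes were not tested. Within the cluster, without Slurp1 cells, without cells with 3 or more leukocyte genes or with median-of-ratios scaling, the inflammation median was 0.45, 0.47 and 0.57 and the complement median 0.73, 0.69 and 0.73. The 204 EC-iCD45KO cells of the cluster limit the precision of low genes.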

Other observations

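Another cluster of the selected barcodes was led by bone genes. Cluster 8 (150 WT and 113 EC-iCD45KO barcodes) was led by Bglap, Bglap2 and Mepe, and also by Ibsp and Dmp1, an osteocyte matrix protein. Bglap2 had 1626 UMIs over all selected WT barcodes and 2 in EC-iCD45KO. Cluster 12, led by Cxcl5, Mmp13 and Il6, held 105 and 35 barcodes. Cluster 17 (0 and 22 barcodes) was led by the kidney genes S100g and Aqp2. In the modulated smooth muscle-like cluster Ren1, which encodes renin, had 236 UMIs in 5 WT cells, 178 of them in 1 cell.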
